A study of Homo sapiens with 4 samples.

Results

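The enzymes and chaperones that modify procollagen in the endoplasmic reticulum were examined in HK-2 cells, an immortalised human kidney proximal tubule line, exposed to the cytokine TGF-β1 or left as controls. The 10 genes were taken by name from the 25609 genes of the deposited expression table: the prolyl 4-hydroxylase α subunits P4HA1, P4HA2 and P4HA3, their partner P4HB, the lysyl hydroxylases PLOD1, PLOD2 and PLOD3, the prolyl 3-hydroxylase complex members P3H1 and CRTAP, and the collagen chaperone SERPINH1. All 10 were present and all passed the filter on low values described below. The TGF-β1 group held 2 libraries of wild-type HK-2 cells in which the cytokine was applied for 24 h at 20 ng/mL, and the control group held 2 libraries of wild-type HK-2 cells labelled as controls. The labels give every sample the same handling text, in which cells were serum starved for 24 h and received 4-thiouridine (4SU), a nucleoside that marks newly made RNA, at a final 100 μM for 20 h, and total RNA was sequenced. HK-2 is 1 cell line, and the labels name no separate cultures, so the spread between the 2 libraries of a group may be technical.

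Procollagen chains are modified while they are still unfolded. Prolyl 4-hydroxylase is a tetramer of α subunits, which carry the catalytic site, and P4HB, also known as protein disulfide isomerase, and its product 4-hydroxyproline stabilises the collagen triple helix. Lysyl hydroxylases prepare lysines for glycosylation and for the cross-links that lysyl oxidases later form, and PLOD2 is known for acting on the telopeptides that carry those cross-links. P3H1, CRTAP and the cyclophilin PPIB form a complex that hydroxylates single prolines, and SERPINH1 (HSP47) binds the folded helix and escorts it out of the endoplasmic reticulum. The hydroxylases need oxygen, iron, 2-oxoglutarate and ascorbate.

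Levels are given in RPKM, read counts divided by exon length and by library size, and differences as log2 fold changes of TGF-β1 over control on log2(RPKM + 0.5). Tests were made with limma across the 16590 genes with a mean of at least 0.5 RPKM, and a gene was called changed at a Benjamini-Hochberg adjusted p below 0.05. By that rule 9.12% of genes were called in either direction, 6.12% as higher and 3.0% as lower. Among the 10 genes, P4HA2 and P4HA3 were called higher by limma and none was called lower, against 1 lower both with voom on recovered reads and with scaling by total recovered reads. Over all genes tested, voom called 2794 of 16527 lower and total-read scaling 887 of 16590. At an unadjusted p below 0.05, 7 of the 10 passed by limma, against 25.0% of all genes tested, and CRTAP was not among them (p 0.0650). Levels in both TGF-β1 libraries lay above both control libraries for 8 of the 10 genes, against 29.5% of all genes tested, and below both for CRTAP alone, against 24.6% of all genes tested. The median log2 fold change was 0.33 over the 10 genes and 0.03 over all genes tested. With the libraries scaled by their total recovered reads, these medians were 0.15 and −0.13, and the count of the 10 genes above both controls was 7, against 18.2% of all genes.

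**Figure D1:**
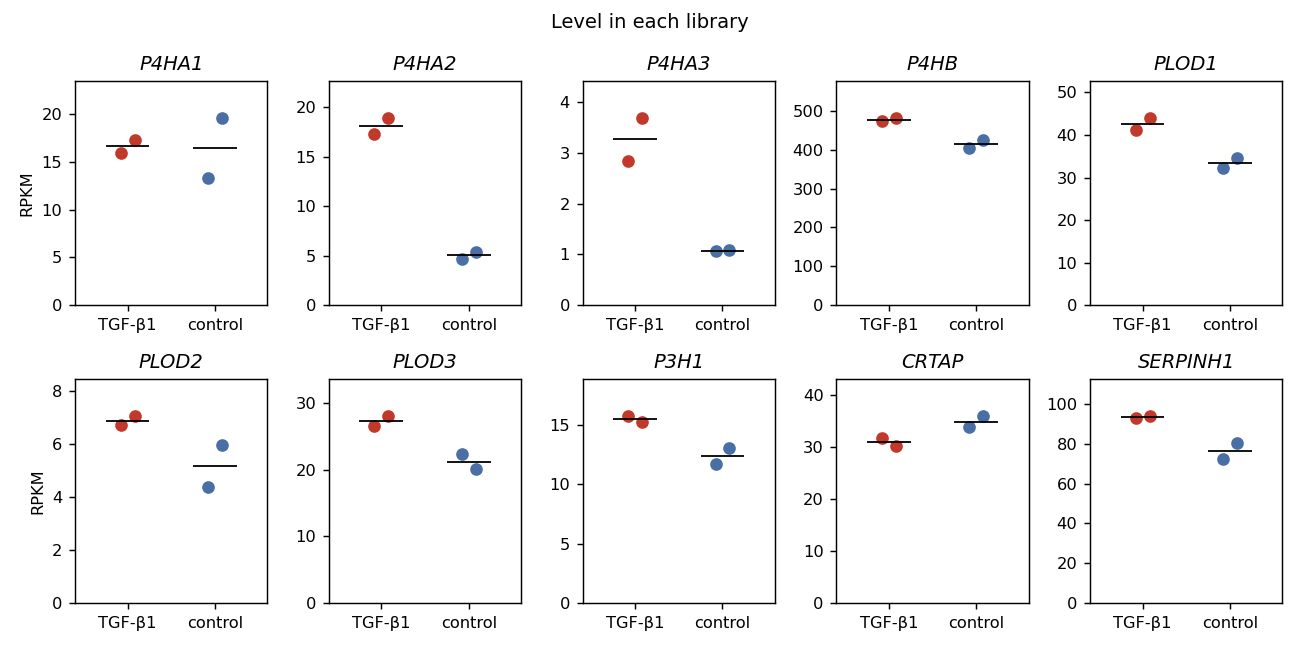
RPKM of each of the 10 genes in every library, with a separate panel and linear axis for each gene. TGF-β1 libraries stand left of control libraries, and a bar marks each group's mean. P4HA2 (18.1 RPKM with TGF-β1 and 5.03 in control) and P4HA3 (3.27 and 1.08) show the widest gaps, and the P4HA1 libraries of the groups overlap.

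P4HA2, an α subunit of prolyl 4-hydroxylase, had the largest change of the 10 genes. It is annotated on the minus strand of hg38 chromosome 5, from 132191838 to 132295315 (ENSG00000072682.18). Its level was 17.3 and 18.9 RPKM in the TGF-β1 libraries, against 4.67 and 5.39 RPKM in the control libraries. Both TGF-β1 libraries stood far above both control libraries, and the groups did not overlap. These levels rest on 611 and 755 recovered reads in the TGF-β1 libraries and on 134 and 215 reads in the control libraries. P4HA2 averaged 18.1 ± 1.11 RPKM with TGF-β1 and 5.03 ± 0.514 RPKM in control (SD, n = 2 each), a ratio of 3.60. The log2 fold change was 1.75 (SE 0.12, 95% confidence interval 1.45 to 2.05), with an adjusted p of 0.00317 by limma. P4HA2 ranked 158 of 16590 genes by log2 fold change. It passed the threshold under each of the 14 alternatives tried, with log2 fold changes of 1.58 to 1.85 and a highest adjusted p of 0.0333 by limma.

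P4HA3, the α subunit with the lowest level here, was also called higher, at much lower depth. It lies on the minus strand of hg38 chromosome 11, from 74235801 to 74311657 (ENSG00000149380.11). Its level was 2.85 and 3.68 RPKM in the TGF-β1 libraries, against 1.07 and 1.09 RPKM in the control libraries. The groups did not overlap, but the control values stand on 14 and 20 reads, beside 47 and 69 reads in the TGF-β1 libraries. The ratio of means was 3.03 and the log2 fold change 1.25 (SE 0.21, 95% confidence interval 0.71 to 1.79), with an adjusted p of 0.0297 by limma. The call was lost when any of the 4 libraries was left out (adjusted p 0.0674 to 0.159 by limma), without the filter on low values (0.0755) and without the variance trend (0.0541), while the log2 fold change over the 14 alternatives stayed between 1.03 and 1.50.

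P4HA1, the α subunit with the highest RPKM in the control libraries, did not pass the test. It lies on the minus strand of hg38 chromosome 10, from 73007217 to 73096974 (ENSG00000122884.12). Its level was 16.0 and 17.3 RPKM in the TGF-β1 libraries, against 13.3 and 19.6 RPKM in the control libraries. The TGF-β1 values lay between the 2 control values, so the groups overlapped fully. The log2 fold change was 0.04 (SE 0.19, 95% confidence interval −0.44 to 0.52), with an adjusted p of 0.918 by limma. Its sign turned under 5 of the alternatives, including the omission of control replicate 1 (−0.23), so no direction is given. The interval leaves room for a change of either sign, though not for one of the size measured for P4HA2.

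The α subunits are close relatives, and reads of 1 could in principle be counted for another. The stretch of 60 coding bases most alike between P4HA1 and P4HA2 is printed with the matching stretch of P4HA3, from GENCODE 29 transcripts on hg38, 5′ to 3′. Capitals mark the bases that differ from P4HA1, 9 in P4HA2 and 15 in P4HA3. Positions are counted from the first base of the start codon.
P4HA2, coding bases 1237 to 1296: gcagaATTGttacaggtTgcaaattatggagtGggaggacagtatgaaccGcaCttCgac
P4HA3, coding bases 1267 to 1326: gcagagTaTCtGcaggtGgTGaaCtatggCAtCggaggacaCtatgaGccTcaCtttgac
P4HA1, coding bases 1234 to 1293: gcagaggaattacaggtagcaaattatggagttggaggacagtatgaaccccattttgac
Over the whole coding sequences, the longest identical run was 17 bases between P4HA2 and P4HA1 and 12 bases between P4HA3 and either of the others. No run of 50 exon bases was shared between any pair of the 10 genes. The share of 50-base runs found in any other annotated gene was 0% for P4HA1, 5.93% for P4HA2 and 3.25% for P4HA3.

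Because P4HA2 and P4HA3 differed between the groups while P4HA1 overlapped, the makeup of the α subunit transcripts differed too. P4HA2 made up 47.9% and 47.3% of the summed α subunit RPKM in the TGF-β1 libraries, against 24.5% and 20.7% in the control libraries. P4HA1 made up 44.2% and 43.5% in the TGF-β1 libraries, against 69.9% and 75.1% in the control libraries. By RPKM, P4HA1 was thus the highest α subunit in every control library, and P4HA2 was slightly above it in the TGF-β1 libraries. This order and these shares depend on the exon lengths used, 8502 bases for P4HA2 and 3093 for P4HA1. In recovered reads, P4HA2 had 611 and 755 with TGF-β1 and 134 and 215 in control. P4HA1 had 205 and 252 reads with TGF-β1 and 139 and 284 in control. P4HA3 supplied 7.89% and 9.23% in the TGF-β1 libraries, against 5.60% and 4.18% in the control libraries. The ratio of P4HA2 to P4HA1 was 1.08 and 1.09 with TGF-β1, against 0.351 and 0.276 in control, a 3.49-fold difference (log2 1.80). The exact two-sided permutation p was 0.333, the smallest that 2 against 2 libraries allow. The summed level of the α subunits was 36.1 and 39.9 RPKM with TGF-β1, against 19.0 and 26.1 RPKM in control.

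**Figure D2:**
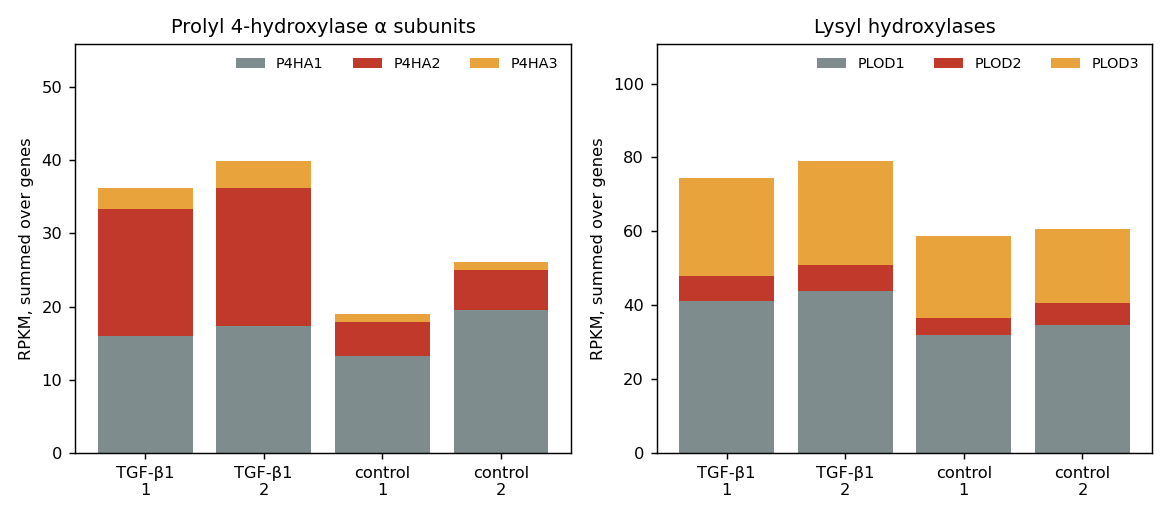
Stacked RPKM of each α subunit of prolyl 4-hydroxylase and of each lysyl hydroxylase in every library, TGF-β1 libraries left of control libraries. P4HA2 fills 47.9% and 47.3% of the α subunit sum with TGF-β1 and 24.5% and 20.7% in control, while PLOD1 holds 54.6% to 57.0% of the lysyl hydroxylase sum throughout.

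P4HB, which holds the α subunits in solution and also acts alone as a disulfide isomerase, was the most abundant of the 10 genes by a wide margin. It lies on the minus strand of hg38 chromosome 17, from 81843159 to 81860694 (ENSG00000185624.14). Its level was 474 and 480 RPKM in the TGF-β1 libraries, against 406 and 426 RPKM in the control libraries. With the deposited values the groups did not overlap, but the ratio of means was only 1.15. The log2 fold change was 0.20 (SE 0.06, 95% confidence interval 0.05 to 0.35), and the adjusted p of 0.118 by limma did not pass. Quantile normalisation turned its sign (−0.08). With scaling by total recovered reads the P4HB groups overlapped and the log2 fold change was 0.018, and voom on recovered reads gave 0.016. The P4HB level was 13.1 and 12.05 times the α subunit sum in the TGF-β1 libraries, against 21.3 and 16.3 times in the control libraries, so P4HB transcripts exceeded those of the α subunits in all 4 libraries.

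None of the 3 lysyl hydroxylases passed the test, although each was above control in both TGF-β1 libraries. PLOD1, the most abundant lysyl hydroxylase here, had 41.1 and 43.9 RPKM with TGF-β1, against 32.1 and 34.6 RPKM in control. Its log2 fold change was 0.34 (SE 0.08, 95% confidence interval 0.15 to 0.54), with an adjusted p of 0.0577 by limma, and it passed when only genes with a mean of at least 2 RPKM were tested (adjusted p 0.0434). PLOD3, which also carries glycosyltransferase activity, had 26.7 and 28.1 RPKM with TGF-β1, against 22.3 and 20.1 RPKM in control. The PLOD3 log2 fold change was 0.36 (SE 0.09, 95% confidence interval 0.14 to 0.58) with an adjusted p of 0.0691 by limma. In both genes the gap between the groups was wider than the gap within either group.

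PLOD2, the telopeptide lysyl hydroxylase, was the least abundant of the 3. Its level was 6.72 and 7.07 RPKM in the TGF-β1 libraries, against 4.38 and 5.97 RPKM in the control libraries. The groups did not overlap, but the controls differed from each other by more than the nearest TGF-β1 and control libraries did. The log2 fold change was 0.40 (SE 0.17, 95% confidence interval −0.04 to 0.83), with an adjusted p of 0.240 by limma. It was 0.19 without control replicate 1 and 0.60 without control replicate 2. The ratio of PLOD2 to PLOD1 was 0.163 and 0.161 with TGF-β1, against 0.136 and 0.172 in control, a log2 difference of 0.08 (exact two-sided permutation p 1.00). Within the summed lysyl hydroxylase RPKM, PLOD2 supplied 9.02% and 8.94% with TGF-β1, against 7.44% and 9.83% in control. The sum itself was 74.5 and 79.1 RPKM with TGF-β1, against 58.8 and 60.7 RPKM in control. PLOD1 lies on hg38 chromosome 1 from 11934205 to 11975538 (plus strand), PLOD2 on chromosome 3 from 146069440 to 146163653 (minus strand) and PLOD3 on chromosome 7 from 101205977 to 101218420 (minus strand).

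The hydroxylase of the prolyl 3-hydroxylase complex and its partner CRTAP lay on opposite sides of control. P3H1, its catalytic member, had 15.8 and 15.3 RPKM in the TGF-β1 libraries, against 11.7 and 13.1 RPKM in the control libraries. CRTAP, a non-catalytic relative that stabilises P3H1, had 31.6 and 30.1 RPKM with TGF-β1, against 33.7 and 35.9 RPKM in control. P3H1 was therefore above control and CRTAP below it in both TGF-β1 libraries, with no overlap for either. Neither passed the test: the log2 fold change was 0.31 for P3H1 (SE 0.09, adjusted p 0.115 by limma) and −0.17 for CRTAP (SE 0.07, adjusted p 0.234 by limma). CRTAP passed as lower under 2 of the 14 alternatives, scaling by total recovered reads (−0.35, adjusted p 0.0494) and voom on recovered reads (−0.36, adjusted p 0.000374), and its highest adjusted p was 0.621. CRTAP transcripts outnumbered those of P3H1 per length by 2.004 and 1.966 to 1 with TGF-β1, against 2.87 and 2.74 to 1 in control. That ratio, examined after the values had been seen, was 0.707-fold that of control (log2 −0.50, exact two-sided permutation p 0.333, the smallest possible). P3H1 lies on hg38 chromosome 1 from 42746335 to 42767084 (minus strand), and CRTAP on chromosome 3 from 33113979 to 33147773 (plus strand).

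PPIB, the cyclophilin of that complex, rose where P3H1 and CRTAP were not called. Its level was 343 and 360 RPKM in the TGF-β1 libraries, against 241 and 246 RPKM in the control libraries. PPIB was above control in both TGF-β1 libraries, 1.45-fold by the means, with a log2 fold change of 0.53 and an adjusted p of 0.0106 by limma. The call was lost without the variance trend (adjusted p 0.103) and held under the other 13 alternatives.

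SERPINH1, the collagen chaperone HSP47, was the second most abundant of the 10 genes. It lies on the plus strand of hg38 chromosome 11, from 75562056 to 75572783. Its level was 92.9 and 94.0 RPKM in the TGF-β1 libraries, against 72.3 and 80.4 RPKM in the control libraries. Both TGF-β1 libraries lay above both controls, 1.22-fold by the means. The log2 fold change was 0.29 (SE 0.07, 95% confidence interval 0.10 to 0.48), with an adjusted p of 0.0787 by limma. Over the 14 alternatives it ran from 0.067, with quantile normalisation, to 0.37, without control replicate 2. It was 0.11 with scaling by total recovered reads and 0.105 with voom.

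**Figure D3:**
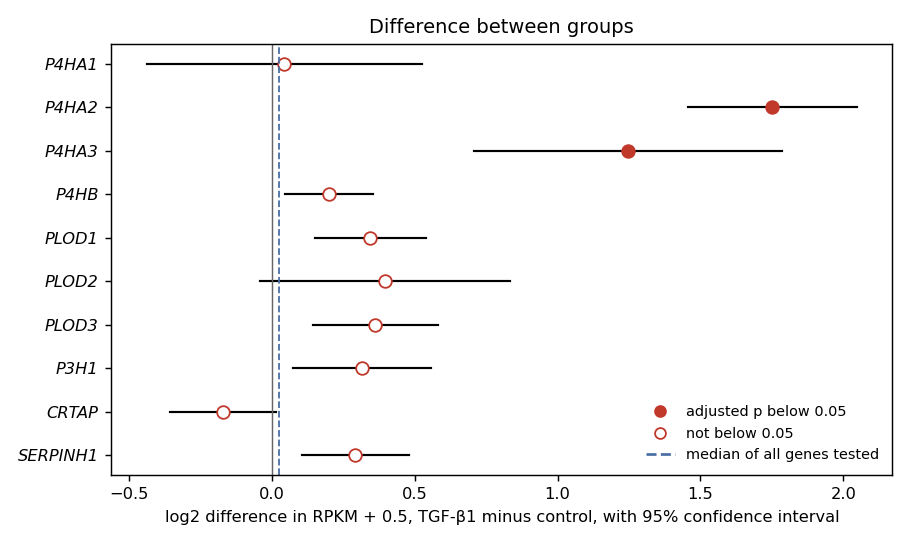
Log2 fold change of TGF-β1 over control for each of the 10 genes, with its 95% confidence interval and the median of all genes tested (0.03) as a line. P4HA2 (1.75) and P4HA3 (1.25) passed the test, and the other 8 genes, from CRTAP (−0.17) to PLOD2 (0.40), did not.

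Ranked by RPKM, the TGF-β1 libraries ran P4HB, SERPINH1, PLOD1, CRTAP, PLOD3, P4HA2, P4HA1, P3H1, PLOD2 and P4HA3. The libraries of P4HA2 and P4HA1 overlapped in that order, and those of every other neighbouring pair did not. In the control libraries the order was P4HB, SERPINH1, CRTAP, PLOD1, PLOD3, P4HA1, P3H1, PLOD2, P4HA2 and P4HA3, with overlap between CRTAP and PLOD1 and between PLOD2 and P4HA2. P4HA2 thus stood sixth with TGF-β1 and ninth in control.

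Genes that share bases with the 10 were examined because the labels do not say whether counting used the strand. P4HA2 shares 548 exon bases, 6.45% of its length, with its antisense gene P4HA2-AS1, which had 1 and 0 recovered reads in the TGF-β1 libraries, against 0 and 0 in the control libraries. P4HB shares 529 exon bases, 9.98% of its length, with AC145207.3 on the opposite strand, which had 1 and 2 reads with TGF-β1, against 0 and 1 in control. These neighbours were thus nearly without counted reads. P4HA2 also overlaps SLC22A4, a carnitine and ergothioneine transporter on the opposite strand, without shared exon bases. SLC22A4 had 29 and 31 recovered reads in the TGF-β1 libraries, against 5 and 3 in the control libraries, with a log2 fold change of 1.73 (adjusted p 0.0250 by limma). That call was lost under 4 of its 13 alternatives, including the omission of either TGF-β1 library, where the adjusted p was 0.0973 and 0.0969. SLC22A4 and P4HA2 were thus both higher at this locus, SLC22A4 with far fewer reads than the 611 and 755 of P4HA2 in the TGF-β1 libraries. P4HA3 shares 166 exon bases, 4.14% of its length, with PPME1, a phosphatase methylesterase on the opposite strand. PPME1 had 181 and 202 reads with TGF-β1, against 226 and 306 in control, and its log2 fold change was −0.56 (adjusted p 0.0399 by limma, lost under 7 of 14 alternatives, among them the omission of any library, up to 0.174). PPME1 therefore ran opposite to P4HA3. PLOD3 shares 429 exon bases, 7.56% of its length, with ZNHIT1 on the opposite strand, which had 547 and 600 reads with TGF-β1, against 323 and 460 in control (log2 fold change 0.41, adjusted p 0.0344 by limma, lost under 9 of 14 alternatives, up to 0.163). How far such overlaps enter the values of P4HA2, P4HA3, P4HB and PLOD3 was not tested.

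Promoter windows from RefSeq (GRCh38.p14, 250 bases before the start site) were matched for 9 of the 10 genes, all but P4HA3, with 2 windows for SERPINH1. They were searched on both strands for the SMAD box CAGAC, the SMAD palindrome GTCTAGAC, the AP-1 site TGANTCA, the hypoxia response core ACGTG, the heat shock pair TTCNNGAA, the TATA sequence TATAAA and the ER stress response element. Among all 35116 promoters of the same length, 38.0% held CAGAC, 18.5% ACGTG, 10.7% TATAAA and 6.62% TTCNNGAA. The matches in genes that the results turn on are printed as windows of 30 bases on the strand of the gene, 5′ to 3′, with the motif, or its reverse complement, in capitals.
P4HA2, chr5:132227244-132227273, minus strand, SMAD box 170 bases before the start: tcttttctccccCAGACatccttgtggaac
P4HA1, chr10:73096935-73096964, minus strand, hypoxia core 86 bases before the start: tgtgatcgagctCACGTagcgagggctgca
PLOD2, chr3:146161316-146161345, minus strand, SMAD box and hypoxia core sharing bases, 149 and 146 bases before the start: gagcaaacagtcCAGACGTGgggcccagga
PLOD2, chr3:146161367-146161396, minus strand, a second hypoxia core 200 bases before the start: cgtgagcctccaCACGTagccgcaggcagc
SERPINH1, chr11:75562166-75562195, plus strand, heat shock pair 76 bases before the start: cgtttccaactTTCCAGAAgtttctcggga
P4HA2, which rose, and P4HA1, which was not called, each held a SMAD box, the one in P4HA1 lying 176 bases before the start. The second SERPINH1 window held a hypoxia core 184 bases before its own start. TATAAA was found 29 bases before the start of P4HA1 and 28 bases before that of P4HB, which also held its reverse complement at 30 bases. None of the windows held GTCTAGAC, TGANTCA or the ER stress response element, which occurred in 0.182%, 6.57% and 0.0740% of all promoters. The P4HA2 window lies wholly within exons of longer annotated P4HA2 transcripts, and the PLOD3 and second SERPINH1 windows likewise lie wholly within exons of their own genes. The first SERPINH1 window has 197 of its 250 bases in SERPINH1 exons, and the P4HA1 window has 108 in P4HA1 exons. The PLOD2 window lies wholly within longer PLOD2 transcripts, with 0 bases in exons. These matches describe letters in the windows, and binding was not measured.

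The substrates of these enzymes are the collagens. Of 17 fibrillar and type IV collagen genes, 7 passed the filter on low values, 5 of these rose and none fell, with a median log2 fold change of 1.43 over the 7. COL1A1, a chain of type I collagen, averaged 22.9 ± 2.03 RPKM with TGF-β1 and 5.19 ± 0.0305 RPKM in control (SD, n = 2 each), a ratio of 4.41 (adjusted p 0.00197 by limma). COL1A2, which encodes the other chain of type I collagen, had 0 recovered reads in all 4 libraries. COL5A1 rose 5.51-fold, COL27A1 6.16-fold, COL4A1 2.73-fold and COL4A2 1.79-fold, and COL4A2 was the most abundant at 385 ± 11.2 RPKM with TGF-β1 and 215 ± 7.42 RPKM in control. The 2 type IV chains lost their calls without the variance trend, which left 3 of the 5. The ratios of P4HA2 (3.60) and P4HA3 (3.03) lay within the range of these 5 called substrate genes. Those of P4HB, PLOD1, PLOD2, PLOD3, P3H1 and SERPINH1 (1.15 to 1.33), P4HA1 (1.01) and CRTAP (0.887) lay below it. COL11A1 and COL11A2, which were tested but not called, had ratios of 1.41 and 1.55.

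Among 11 other genes of collagen modification in the endoplasmic reticulum, 10 were tested, 2 rose and none fell by limma, with a median log2 fold change of 0.23. At an unadjusted p below 0.05, 5 were higher and 0 lower, and voom called 1 lower. The count that rose was 1 under 6 alternatives and 0 without the variance trend. Beside PPIB, these included FKBP10, a prolyl isomerase that acts with PLOD2, at 85.2 ± 2.83 RPKM with TGF-β1 and 66.3 ± 1.10 RPKM in control (SD, n = 2 each), with an adjusted p of 0.0297 by limma. The FKBP10 call was lost under 8 of 14 alternatives, among them the omission of any library (adjusted p 0.0666 to 0.140). Of 8 procollagen processing genes, 5 were tested, 1 rose and 1 fell. BMP1, the procollagen C-proteinase, rose 1.70-fold, with 45.8 ± 1.43 RPKM with TGF-β1 and 26.9 ± 1.56 RPKM in control (adjusted p 0.00821 by limma, lost without the variance trend at 0.0692). ADAMTS3, an N-proteinase, fell to 1.35 ± 0.0812 RPKM with TGF-β1, against 3.71 ± 0.272 RPKM in control (adjusted p 0.0231 by limma, lost when any library was left out, up to 0.0845).

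Wider relatives of the enzymes were called at a share near that of all genes. A list of 21 genes held other protein disulfide isomerases, the family of P4HB, and the oxidases ERO1A and ERO1B. Of the 21, 14 were tested, 1 rose (PDIA3, a ratio of 1.29, adjusted p 0.0323 by limma, lost under 8 of 14 alternatives) and none fell by limma (1 lower at an unadjusted p below 0.05), while 2 fell with total-read scaling and 3 with voom. Of 17 other 2-oxoglutarate dioxygenases, 14 were tested, 1 rose and none fell by limma (3 lower at an unadjusted p below 0.05), while 4 fell with voom. In each list 7.14% of the tested genes were called by limma, against 9.12% of all genes tested. Over all genes tested, voom called 2794 of 16527 lower, total-read scaling 887 of 16590 and quantile normalisation 687 of 16590. The dioxygenase that rose was JMJD6, a nuclear lysyl hydroxylase, at 22.7 ± 0.242 RPKM with TGF-β1 and 14.0 ± 0.799 RPKM in control (SD, n = 2 each, adjusted p 0.0131 by limma), and the call was lost without either TGF-β1 library (0.0571 and 0.0585) and without the variance trend (0.0765). Of 12 genes that supply iron, ascorbate or 2-oxoglutarate, 11 were tested and none was called by limma, with 1 lower and 0 higher at an unadjusted p below 0.05. With voom 7 of the 11 were called lower, and 2 with either total-read scaling or quantile normalisation. TFRC, the transferrin receptor of that list, had 11.1 ± 0.218 RPKM with TGF-β1 and 15.0 ± 1.48 RPKM in control (log2 fold change −0.42, adjusted p 0.0730 by limma), and passed as lower under 5 of 14 alternatives, the highest adjusted p being 0.231.

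P4HA1, P4HA2 and PLOD2 are known targets of hypoxia-inducible factors in several cell types, and other known hypoxia targets are therefore given beside them. Of 19 such genes, 17 were tested, 2 rose and 6 fell, with a median log2 fold change of −0.27. The count that fell was 3 without the variance trend and 12 with voom, which called 2794 of all 16527 genes it tested lower. The count that rose was 1 without the trend or without any of the 4 libraries. ANGPTL4, a lipase inhibitor, rose 8.16-fold to 29.6 ± 1.00 RPKM with TGF-β1, against 3.62 ± 0.336 RPKM in control. BNIP3, a mitophagy receptor, fell to 4.67 ± 0.322 RPKM with TGF-β1, against 22.2 ± 3.78 RPKM in control (adjusted p 0.00319 by limma). PFKFB3, a regulator of glycolysis, fell to 23.8 ± 0.794 RPKM with TGF-β1, against 40.5 ± 0.664 RPKM in control (adjusted p 0.00651 by limma, lost without the variance trend at 0.0649). VEGFA, the angiogenic growth factor, rose 1.69-fold (adjusted p 0.0250 by limma), a call lost when any library was left out and without the variance trend (up to 0.140). Of the tested hypoxia targets 47.1% were called by limma, against 9.12% of all genes tested, of which 6.12% were higher and 3.0% lower. The list therefore held 6 genes called lower and 2 called higher, beside P4HA2, which rose, and P4HA1 and PLOD2, which were not called.

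**Figure D4:**
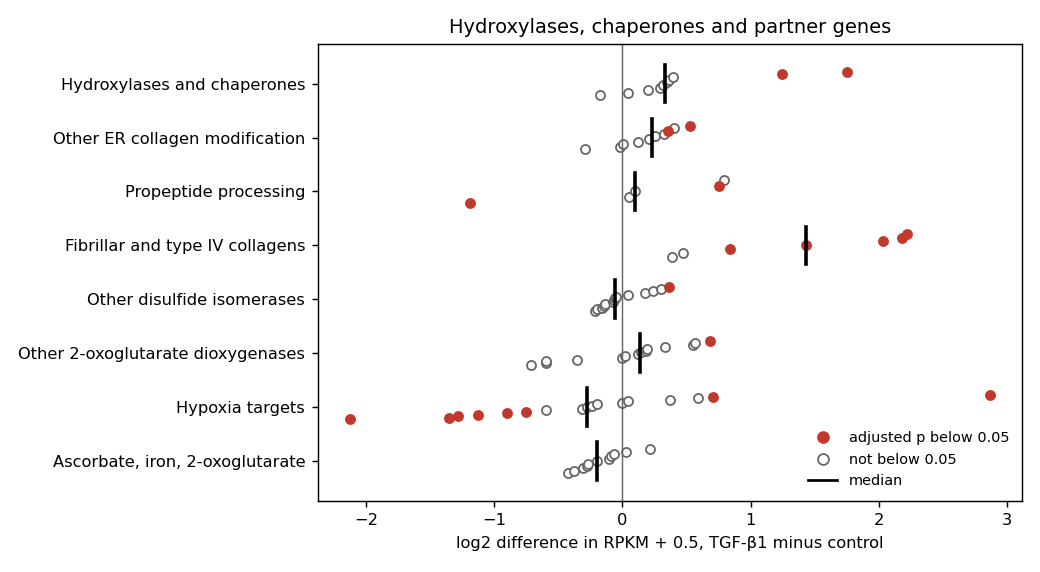
Log2 fold change of TGF-β1 over control for each tested gene of the 10 and of the other lists, with filled points for genes called at adjusted p below 0.05 and a bar at each list's median. The collagens stand highest with a median of 1.43, the 10 hydroxylases and chaperones have 0.33 and the hypoxia targets −0.27.

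The libraries held 3346290 to 5472436 recovered reads. PAX8, a renal epithelial transcription factor, was present at 15.1 ± 0.619 RPKM with TGF-β1 and 43.5 ± 1.83 RPKM in control, whereas CUBN, AQP1, SLC34A1 and ANPEP, defining genes of the mature proximal tubule, were below the filter. Of 13 proximal tubule markers 4 were tested and 2 fell, PAX8 and the peptidase DPP4. Summed over the 11 of these markers that had values, the level was 46.9 and 44.7 RPKM with TGF-β1, against 86.5 and 88.7 RPKM in control. All 6 genes of the epithelial list, which holds both cadherins CDH1 and CDH2, were tested, of which KRT8, KRT18 and CDH2 rose and KRT19 and EPCAM fell. CDH1 was not called (adjusted p 0.251 by limma), at 0.604 and 0.499 RPKM with TGF-β1 against 1.22 and 0.947 RPKM in control. Of 8 fibroblast markers only LUM was tested, and the summed level was 9.12 and 7.23 RPKM with TGF-β1, against 12.7 and 13.5 RPKM in control. LUM alone gave 8.76 and 6.74 RPKM of these sums with TGF-β1, against 12.1 and 12.9 RPKM in control. PDGFRB had 0.152 and 0.223 RPKM with TGF-β1, against 0.103 and 0.0447 RPKM in control. These PDGFRB values rest on 4 and 7 reads with TGF-β1 and on 2 and 1 in control, below the filter, so no direction is given. What part the shifts of the fibroblast, epithelial and tubule markers have in the levels of the 10 genes was not tested. The endothelial markers CDH5 and VWF had 0 reads in every library, and the leukocyte markers summed to 0.229 and 0.411 RPKM with TGF-β1, against 0.602 and 0.569 RPKM in control. In bulk RNA, fewer cells of a kind and less RNA per cell cannot be told apart.

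**Figure D5:**
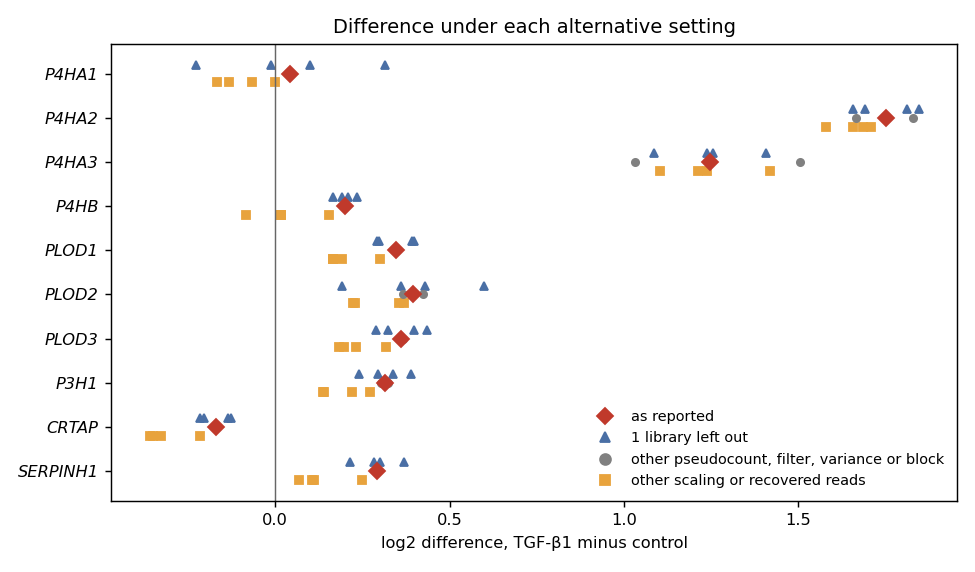
Log2 fold change of TGF-β1 over control for each of the 10 genes as reported and under each alternative setting tried. P4HA2 spans 1.58 to 1.85 and P4HA3 1.03 to 1.50, while P4HA1 changes sign under 5 settings and P4HB under quantile normalisation.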

How the data were processed

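Expression was analysed in 4 HK-2 libraries (2 TGF-β1, 2 control), grouped by their titles. The deposited table gives RPKM values by the authors; per the submitters' processing notes, bcl2fastq 2.20.0.422, STAR 2.7.1a, DESeq2 and hg38 were named without roles, and per the labels' protocols libraries were made from total RNA with a directional kit. Neither the annotation nor the strand setting used for counting is given in the sources read. Low values stepped by whole reads above an offset of 0.5 read, so reads were recovered with GENCODE 29 exon lengths for 25498 of 25609 genes (tolerance 0.01 read); genes without reads therefore do not stand at 0 RPKM. SERPINH1 had another gene version, and its length was inferred from its steps. Differences were tested with limma 3.58.1 (R 4.3.3), with a variance trend, on log2(RPKM + 0.5) for genes with a mean of at least 0.5 RPKM, and p-values were adjusted over 16590 genes. The procedure was tested on simulated data. Alternatives changed the pseudocount, filter, trend, scaling, replicate block and libraries included, and ran limma's voom on recovered reads. Beyond the 10, each partner list is named by its 3 called genes with the smallest p, or by the smallest p where none passed, and otherwise only to complete a count of 5 or fewer. COL1A2, the genes overlapping the 10, which marker genes are named and the ratio of CRTAP to P3H1 were chosen after their values were seen. The 10 genes and all lists were chosen with earlier results of these data known. Read counts cover counting error only.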

Additional observations from a re-analysis of the deposited data

How the results depend on the processing

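The number of genes called was 1513, of which 67.1% were higher. It was 977 without the filter on low values, 424 without the variance trend, 3973 with voom on recovered reads, and 574 to 1138 with a library left out (TGF-β1 replicate 2 left out, 574; TGF-β1 replicate 1 left out, 739; control replicate 1 left out, 999). The share of calls that were higher was 62.0% with median-of-ratios scaling, 42.4% with scaling by total recovered reads, 50.4% with quantile normalisation and 29.7% with voom, and total-read scaling gave a median log2 fold change of all genes of −0.13 in place of 0.03. Of the 10 genes, 2 were called higher; 1 was called without the filter, 1 without the trend and 1 in each omission of a library. None was called lower, against 1 with total-read scaling and 1 with voom. P4HA1 took the opposite sign with total-read scaling (−0.13), quantile normalisation (−0.068), voom (−0.17), without control replicate 1 (−0.23) and without TGF-β1 replicate 2 (−0.01), against 0.31 without control replicate 2, as P4HB did with quantile normalisation (−0.084). The log2 difference of the PLOD2 to PLOD1 ratio ran from −0.088, without control replicate 1, to 0.25. The cause of these shifts was not tested. Deviations of same-numbered libraries from their group means were hardly correlated (0.03 over 16590 genes, 2 pairs). With so few pairs this cannot show whether the libraries were paired, and the labels do not say. A replicate block gave 1344 calls, with 2 of the 10 genes higher. The control values of P4HA3 rest on 14 and 20 reads.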
